A study of Mus musculus with 20 samples.

Results

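The stem cell heptad is a group of 7 transcription factors, Tal1, Lyl1, Lmo2, Gata2, Runx1, Erg and Fli1, and the data described here are the histone modification peaks at the loci that encode them. The loci were defined as 7 windows on the mouse mm9 assembly, from 20 kb at Lyl1 to 250 kb at Erg and 830 kb in all. Any peak that overlapped a window by at least 1 bp was taken, which gave 405 of the 218887 peaks deposited on chromosomes 1 to 19, X and Y. The windows were set by position and not by the level of any mark. The peaks were derived by ChIP-seq, the sequencing of DNA pulled down with antibodies to modified histones. The cells were hematopoietic stem cells (HSCs) from B6129SF1 mice and were taken from fetal liver at embryonic day 14.5 or from the bone marrow of adults 6 to 8 weeks old. At both stages the cells were sorted as Lin-Sca1+cKit+CD135-, with 50000 cells per immunoprecipitation, and no genetic change or treatment is named in the labels. H3K4me3, H3K27ac, H3K4me1 and H3K27me3 were profiled with 2 replicates each, but each mark and stage has 1 peak list, which its title calls combined. No replicate spread can therefore be given and no test between stages was made. A difference between stages cannot be told apart from a difference between libraries, sequencing depth or peak calls, and intervals in parentheses are 95% exact Clopper-Pearson intervals that cover counting error over peaks only. The files hold no expression values, so the cell type was taken from the labels.

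The heptad factors bind together at many enhancers of blood stem and progenitor cells, including enhancers of their own genes, and so form a densely interconnected circuit. Tal1 and Lyl1 are basic helix-loop-helix proteins that recognise E-boxes, Gata2 is a zinc finger protein that recognises GATA sites, Runx1 carries a runt domain, and Erg and Fli1 are ETS proteins. Lmo2 does not bind DNA itself but bridges the helix-loop-helix and GATA proteins. H3K4me3 marks promoters, H3K27ac marks active promoters and enhancers, H3K4me1 marks enhancers and the flanks of promoters, and H3K27me3 is laid down by Polycomb complexes at repressed or poised genes.

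RefSeq sequences were available for 10 transcription starts of 5 of the 7 members, all but Lmo2 and Fli1. The 250 bases upstream of a start are shown for Erg, Runx1 and Gata2, because these genes have alternative starts and the marks differed between or across them. Starts are numbered in the direction of transcription, and coordinates of these sequences, unlike all peak coordinates below, are on GRCm38.p6. The first and the third Erg start lie at chr16:95586594-95586843 and chr16:95459349-95459598 on the minus strand, the first and second Runx1 starts at chr16:92826075-92826324 and chr16:92697330-92697579 on the minus strand, and the first and second Gata2 starts at chr6:88193641-88193890 and chr6:88198414-88198663 on the plus strand. Capitals mark every match on either strand to GATA, to the E-box CANNTG, to TGTGGT (a runt-domain sequence) or to GGAA (the ETS core), so that the reverse complements of these are in capitals too, and neighbouring or overlapping matches run together.
Erg start 1: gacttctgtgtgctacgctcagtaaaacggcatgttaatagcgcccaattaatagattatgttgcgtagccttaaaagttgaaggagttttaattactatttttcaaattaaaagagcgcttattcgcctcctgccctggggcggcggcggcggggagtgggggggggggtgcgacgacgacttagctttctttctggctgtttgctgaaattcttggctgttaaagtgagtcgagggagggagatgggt
Erg start 3: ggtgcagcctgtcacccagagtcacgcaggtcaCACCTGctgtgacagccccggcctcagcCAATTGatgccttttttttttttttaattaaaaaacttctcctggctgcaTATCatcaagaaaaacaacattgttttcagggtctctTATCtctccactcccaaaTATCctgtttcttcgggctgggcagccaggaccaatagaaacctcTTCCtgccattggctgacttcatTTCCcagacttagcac
Runx1 start 1: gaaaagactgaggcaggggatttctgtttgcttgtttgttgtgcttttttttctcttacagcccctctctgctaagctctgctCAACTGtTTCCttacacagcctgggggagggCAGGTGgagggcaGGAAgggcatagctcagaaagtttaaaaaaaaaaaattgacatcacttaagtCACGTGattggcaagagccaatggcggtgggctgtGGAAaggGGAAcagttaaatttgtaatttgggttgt
Runx1 start 2: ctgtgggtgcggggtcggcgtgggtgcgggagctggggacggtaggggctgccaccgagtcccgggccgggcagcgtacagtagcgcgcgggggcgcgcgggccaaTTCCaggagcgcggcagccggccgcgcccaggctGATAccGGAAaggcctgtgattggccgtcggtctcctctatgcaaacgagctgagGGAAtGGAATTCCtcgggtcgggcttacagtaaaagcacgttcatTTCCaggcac
Gata2 start 1: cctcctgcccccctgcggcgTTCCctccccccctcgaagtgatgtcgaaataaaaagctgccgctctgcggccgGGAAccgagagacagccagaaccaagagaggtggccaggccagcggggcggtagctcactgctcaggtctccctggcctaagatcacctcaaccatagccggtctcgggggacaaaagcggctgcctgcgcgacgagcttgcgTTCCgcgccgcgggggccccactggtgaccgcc
Gata2 start 2: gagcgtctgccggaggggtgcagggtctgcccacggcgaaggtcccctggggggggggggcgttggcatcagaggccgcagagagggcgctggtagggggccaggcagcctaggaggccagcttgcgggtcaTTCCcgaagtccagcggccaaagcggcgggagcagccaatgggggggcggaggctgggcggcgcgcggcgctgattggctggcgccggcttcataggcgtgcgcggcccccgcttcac

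The pairs of starts differed in their number of CpG dinucleotides at Erg and Runx1 and less so at Gata2. Upstream of the third Erg start there were 3 GATA matches, 2 E-boxes, 2 ETS cores and 3 CpG dinucleotides, whereas none of the motifs was found upstream of the first, which had 14 CpG. The first Runx1 start had 3 E-boxes and 4 ETS cores with 2 CpG, and the second had 1 GATA match and 6 ETS cores with 27 CpG. Both Gata2 starts were rich in CpG, with 22 and 24, and held 3 and 1 ETS cores and none of the other motifs. Among all 32851 RefSeq upstream sequences of this length the median was 6 CpG, and 53.6% held a GATA match, 66.2% an E-box, 14.0% the runt-domain sequence and 93.4% an ETS core, so that a match is common. A match is not evidence of a bound site.

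Because no gene starts on mm9 were at hand, promoters were read from H3K4me3. Overlapping H3K4me3 peaks of both stages were merged into regions, and a peak of another mark was called promoter-type where it overlapped such a region and distal where it did not. The windows held 21 H3K4me3 regions. The widest region of each window was 10942 bp at Gata2, 8890 bp at Erg, 7873 bp at Lyl1, 6701 bp at Runx1, 6051 bp at Lmo2, 5999 bp at Fli1 and 5349 bp at Tal1. With a second region of 5228 bp at Runx1, 8 of the 21 regions were at least 5 kb wide, a width reached by 1.25% of all 18146 H3K4me3 regions. The limit of 5 kb was chosen after values were seen. All 7 widest regions carried H3K4me3 and H3K27ac at both stages. Of all H3K4me3 regions, 84.9% had H3K4me3 and 65.4% had H3K27ac at both stages. Most of those are narrower, and the share among wide regions alone was not computed. The 13 window regions below 5 kb were 748 to 2814 bp wide.

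**Figure D1:**
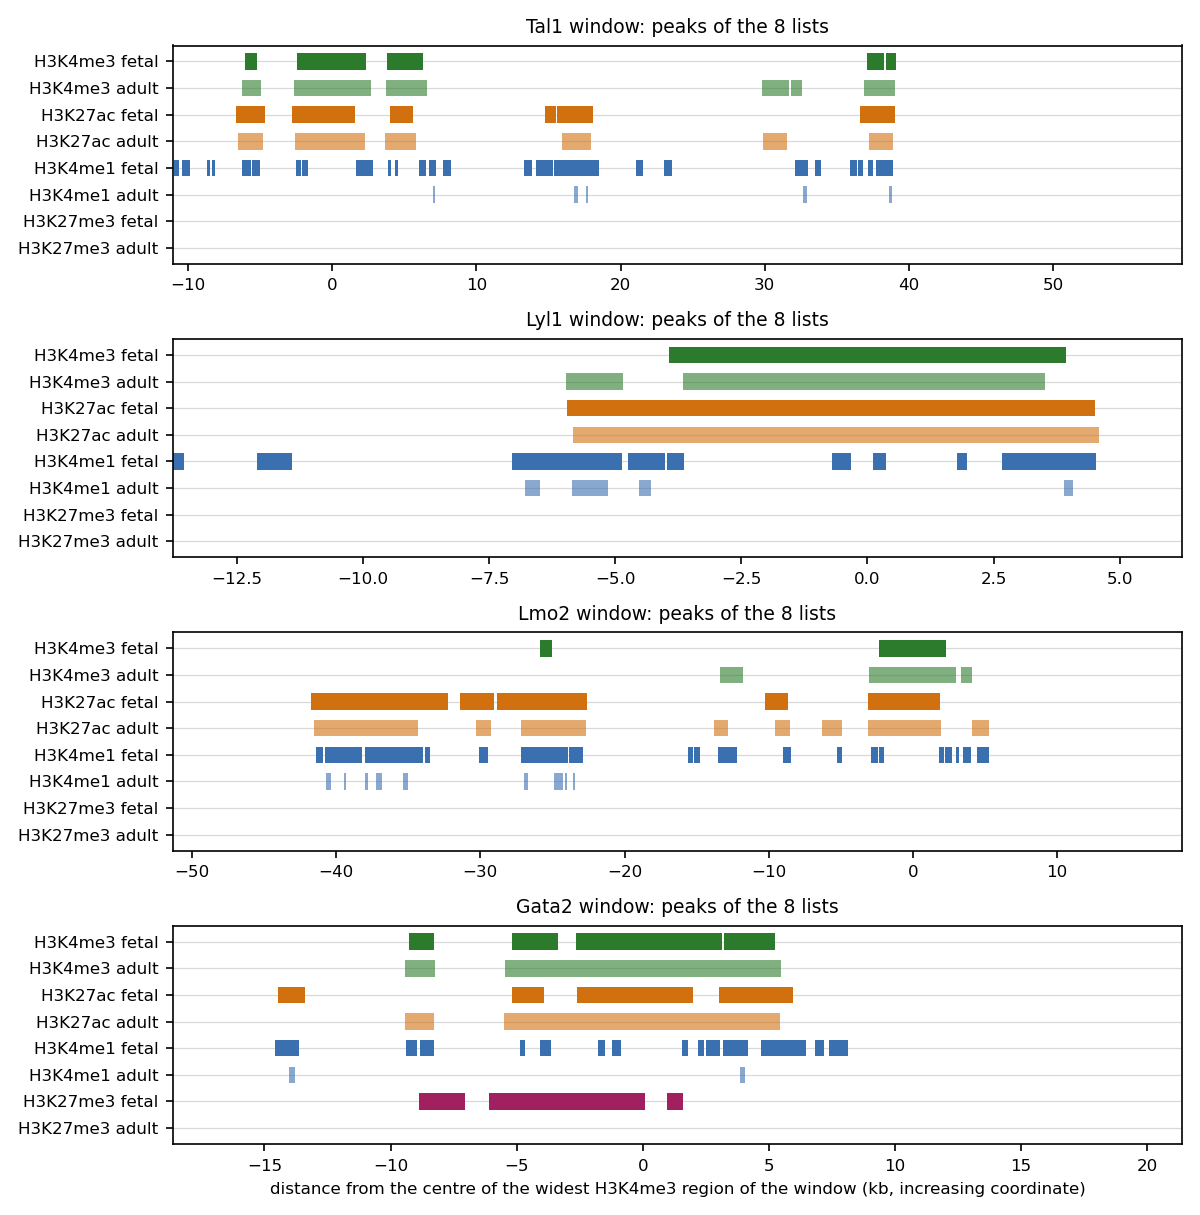
Peaks of the 8 lists in the Tal1, Lyl1, Lmo2 and Gata2 windows, drawn as bars to scale against the distance in kb from the centre of the widest H3K4me3 region; darker bars are fetal and paler bars adult. H3K27me3 bars appear only at Gata2, in the fetal row, and the broad H3K4me3 and H3K27ac regions are present at both stages in each window.

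H3K4me3 was called at both stages in 14 of the 21 regions, against 84.9% of all regions. Another 2 were fetal-only, against 8.5%, and 5 were adult-only, against 6.65%. The 7 regions of 1 stage were 748 to 1865 bp wide, and the widest of them, at Tal1, was wider than 52.3% of all H3K4me3 regions. The 2 regions seen in the fetal list alone were at Lmo2 and Runx1, with scores of 72.19 and 70.82. The 5 seen in the adult list alone were 2 at Tal1, 1 at Lyl1 and 2 at Lmo2, with scores between 53.75 and 753.87. For comparison, the lowest score in either H3K4me3 list was 50 and the medians were 1627 and 1435. These scores are the authors' own values and rank peaks within a list. The counts by stage depended on the peak calls. With H3K4me3 peaks within 1 kb merged, 1 region was fetal-only and 2 were adult-only. With peaks at or above the median score, 1 was fetal-only and 0 were adult-only. The shares over all regions were not recomputed under these settings.

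H3K27ac was present at both stages at 14 of the 21 regions, against 65.4% of all H3K4me3 regions. It was adult-only at 3, against 5.65%, fetal-only at 0, against 6.16%, and absent from both lists at 4, against 22.8%. H3K27me3 was absent from 18 of the 21 regions, against 77.4% of all regions. It was fetal-only at 2 regions, both at Gata2, against 8.32%, present at both stages at 1 region, at Erg, against 13.9%, and adult-only at 0, against 0.353%.

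Tal1, which is required to establish all blood lineages, had its widest H3K4me3 region on chromosome 4 from 114728378 to 114733726. The peak there was 4770 bp wide in the fetal and 5349 bp in the adult list, and H3K27ac peaks of 4410 and 4872 bp lay over it. A second strong region from 114734805 to 114737618 and a narrower one from 114724797 to 114726113 also had both marks at both stages. The only distal acetylated element of the window lay 16.3 kb toward higher coordinates, from 114745156 to 114749555. Fetal H3K27ac covered 3259 bp of it and adult H3K27ac 1993 bp, and it held the best-scored fetal H3K4me1 peak of the window, 3100 bp wide with a score of 1521.94.

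Further along the Tal1 window the lists differed by stage. The region from 114760873 to 114762737 had an adult H3K4me3 peak of 1865 bp and an adult H3K27ac peak of 1661 bp, and no fetal peak of any of the 4 marks overlapped it. Its H3K4me3 score of 753.87 was above that of 38.7% of the adult list. The last region of the window, from 114767939 to 114770139, carried H3K4me3 and H3K27ac at both stages. In RefSeq the gene Pdzk1ip1 follows Tal1, with its start 32282 bp from the first Tal1 start. That spacing could place the Pdzk1ip1 start in this adult-only region, in a weaker adult-only region of 748 bp from 114762876, or in the region from 114767939, so none of them was assigned to a gene. No H3K27me3 peak lay in the window at either stage.

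Lyl1, the closest relative of Tal1, had nearly the same acetylation at both stages. One fetal H3K27ac peak of 10480 bp and one adult peak of 10431 bp had 98.2% of their combined length in common, the highest such share for H3K27ac among the 7 windows. Under them lay an H3K4me3 region on chromosome 8 from 87224829 to 87232701, with a fetal peak of 7873 bp and an adult peak of 7187 bp. The adult H3K27ac peak ranked 12th and the fetal one 51st by width in lists of 18205 and 23797 peaks. A small adult H3K4me3 peak of 1138 bp, from 87222784 to 87223921, had no fetal counterpart but was mostly covered by H3K27ac at both stages, over 1118 and 997 bp, and fetal H3K4me1 covered 98.9% of it. No distal element of the Lyl1 window was acetylated, and its window is the shortest of the 7.

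Lmo2, the bridging adaptor, had broad distal acetylation at both stages. The widest distal element of the window, on chromosome 2 from 103769566 to 103779101, was a fetal H3K27ac peak of 9536 bp with the score 3100, within which an adult peak of 7216 bp was called. Its centre lay 37.0 kb toward lower coordinates from the centre of the promoter-type region (103808298 to 103814348). A second broad acetylated block, from 103782487 to 103788710 in the fetal and from 103784148 to 103788677 in the adult list, was 6224 and 4530 bp wide. It counted as promoter-type because it held a fetal H3K4me3 peak of 838 bp, whose score of 72.19 was above that of only 5.25% of the list.

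Nearer the Lmo2 promoter the adult list held acetylation that the fetal list lacked. Distal elements from 103805025 to 103806409 and from 103815461 to 103816615 carried adult H3K27ac over 1385 and 1155 bp and no fetal H3K27ac, and both held fetal H3K4me1. Their H3K27ac scores, 77.48 and 81.2, were above those of 14.3% and 15.6% of the adult list. The second element began just past an adult-only H3K4me3 region from 103814678 to 103815447. It no longer counted as distal when elements with an H3K4me3 peak within 1 kb were left out. At the promoter itself the H3K4me3 peak was 4623 bp in the fetal and 6051 bp in the adult list, while the H3K27ac peaks were 5014 and 5039 bp.

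Gata2, which sustains the stem cell pool, had H3K27me3 in the fetal list only. In the fetal list 3 H3K27me3 peaks of 1838, 6188 and 633 bp lay on chromosome 6 between 88139748 and 88150216 and covered 21.6% of the window. No adult H3K27me3 peak was listed in the window. Of all fetal H3K27me3 peaks, 64.5% had no adult peak, so that absence from the adult list was common. The H3K27me3 list also covered less in the adult, at 9.34 Mb against 38.3 Mb.

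Across the widest Gata2 region the active marks were called as several peaks in the fetal list and as 1 peak in the adult list. Fetal H3K4me3 consisted of 4 peaks of 1016, 1822, 5785 and 2013 bp. In the adult list there were 2, of which the main one ran from 88143154 to 88154095 over 10942 bp and spanned 3 of the fetal peaks. The gaps between those 3 fetal peaks were each below 1 kb, and fetal H3K4me3 covered 9620 bp of that stretch. Fetal H3K27ac was called as peaks of 1280, 4589 and 2955 bp in the same stretch, against 1 adult peak of 10926 bp. Of the H3K4me3 regions with peaks at both stages, 0.948% held more fetal than adult peaks, and in these windows 2 of 14 did, this one and 1 at Tal1. Regions with more adult than fetal peaks were not counted, and no share was computed among regions of similar width. The fetal H3K27me3 peak of 6188 bp overlapped fetal H3K4me3 over 4535 bp and fetal H3K27ac over 3946 bp. At Gata2 2 of 4 fetal H3K27ac peaks overlapped fetal H3K27me3, against 5.03% of the whole fetal H3K27ac list, and such overlap was found in no other window and at 0 of the 38 adult H3K27ac peaks, against 3.55% of the adult list. Whether the marks lay on the same chromosomes or in different cells of the sorted population cannot be told apart.

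Beside this block, the small region from 88139212 to 88140382 had H3K4me3 at both stages, fetal H3K27me3 over 635 bp, and H3K27ac in the adult list only. Conversely, the one acetylated distal element of the window, from 88134051 to 88135243, carried H3K27ac over 1101 bp in the fetal list and none in the adult list. Both of these H3K27ac peaks had low scores. The adult-only peak scored 76.84, above 14.0% of the adult list, and the fetal-only peak 90.09, above 18.0% of the fetal list. The 2 Gata2 starts shown above are 4773 bp apart in RefSeq. With that spacing both could lie in the widest region, or the first in the small one, so the peaks were not assigned to single starts.

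**Figure D2:**
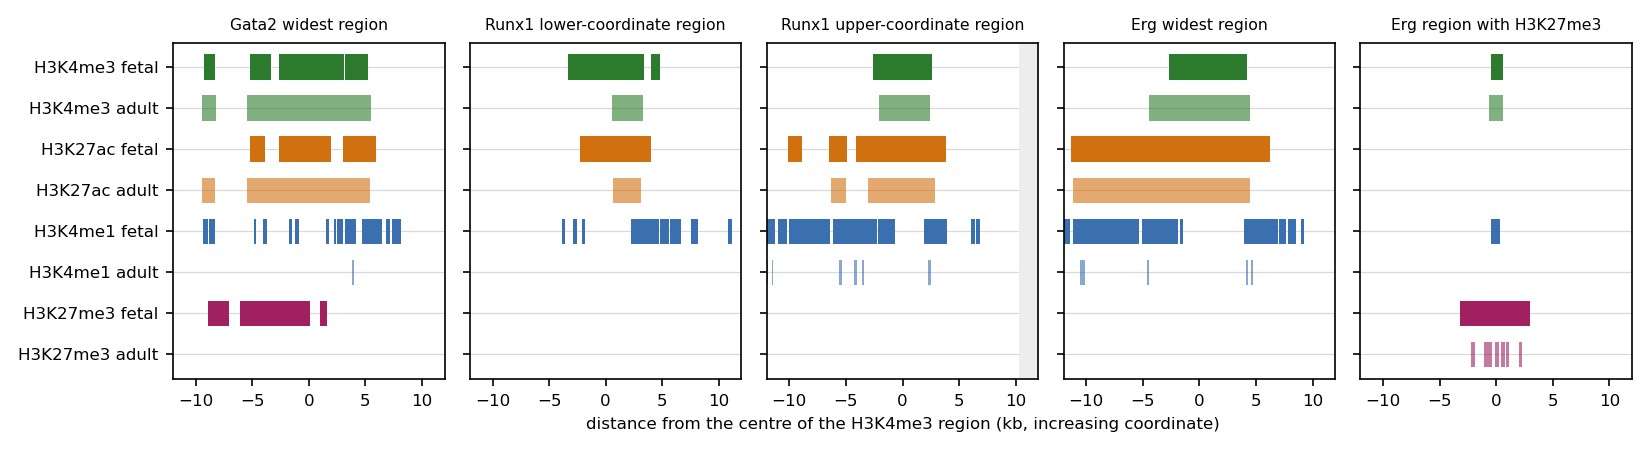
Peaks within 12 kb of 5 H3K4me3 regions, drawn to scale against the distance in kb from the region's centre, with fetal bars darker and adult bars paler; grey shading lies outside the window. At Gata2 fetal H3K27me3 bars overlie H3K4me3 and H3K27ac, at the lower Runx1 region the adult H3K4me3 bar is shorter than the fetal one, and at Erg H3K27me3 is seen at the right-hand region only.

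Runx1, needed for the emergence of HSCs, has an upstream and a downstream promoter, and its first and second RefSeq starts are 128745 bp apart. Of the 3 H3K4me3 regions in the window, only the wide ones, on chromosome 16 from 92822018 to 92827245 and from 92692722 to 92699422, could hold both starts in that order and spacing. At the region fitting the first start, H3K4me3 peaks were 5228 bp in the fetal and 4562 bp in the adult list, and H3K27ac peaks 7942 and 5925 bp. At the region fitting the second start, H3K4me3 peaks were 6701 bp in the fetal and 2722 bp in the adult list, and H3K27ac peaks 6246 and 2496 bp.

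The shorter adult length at the second Runx1 region was one-sided. The adult H3K4me3 peak ran from 92696614 to 92699335, at the higher-coordinate end of the fetal peak, and the part toward lower coordinates, which is downstream for this minus-strand gene, had no adult peak. An adult length below 50% of the fetal one was found at this region alone among the 14 window regions with peaks at both stages, and at 0.182% of all such regions, or 28 of 15397. The reverse, a fetal length below 50% of the adult one, was found at 0 of the 14, against 0.598%. The 50% limit was chosen after values were seen. The adult peak's score, 978.12, was above that of 42.9% of its list. The fetal peak's score, 3100, was above that of 67.8% of its list and was held by 5244 fetal H3K4me3 peaks. No H3K27me3 peak was listed in the Runx1 window at either stage.

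Between and beyond its promoters, Runx1 had 8 distal elements with H3K27ac, the most of any member. Its window is 240 kb long, and Lmo2 had 5 such elements in 70 kb. H3K27ac was shared at 4 of the Runx1 elements, fetal-only at 3 and adult-only at 1. The 3 fetal-only elements had low H3K27ac scores of 64.2, 70.9 and 76.76, above 7.72%, 10.6% and 13.0% of the fetal list. The widest of the 8 elements, from 92799031 to 92805719, had 5637 bp of fetal and 3550 bp of adult H3K27ac. The element from 92714636 to 92719194 had 4141 and 3563 bp. The adult-only element lay at the far end of the window, from 92620311 to 92623295. It carried an H3K27ac peak of 2246 bp with a score of 285.52, above 48.2% of the adult list, and the fetal list had H3K4me1 over 2364 bp but no H3K27ac there. The strongest fetal H3K4me1 peak of the window, 4752 bp from 92782334 to 92787085 with a score of 2807.47, had fetal H3K27ac over 1358 bp only.

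**Figure D3:**
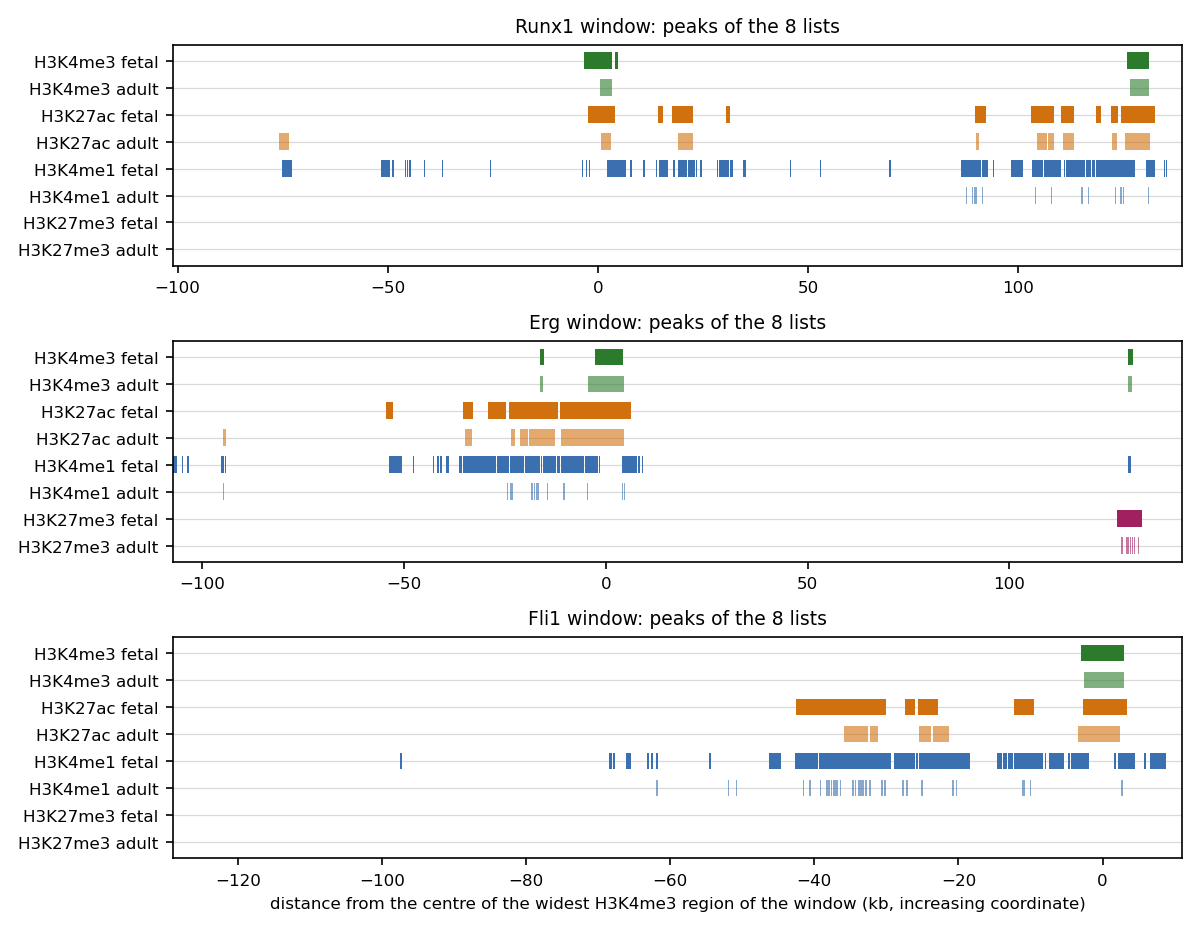
Peaks of the 8 lists in the Runx1, Erg and Fli1 windows, drawn to scale against the distance in kb from the centre of the widest H3K4me3 region, with fetal bars darker and adult bars paler. Runx1 shows H3K4me3 regions about 129 kb apart, Erg a broad acetylated block near 0 and an H3K27me3 block near 130 kb, and Fli1 a wide fetal H3K27ac bar to the left of its promoter.

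Erg, an ETS factor needed for HSC maintenance, had one H3K4me3 region under H3K27me3 and another under broad H3K27ac. RefSeq places the first and the third Erg start 127245 bp apart, and the placement of the 3 starts that put most of them in H3K4me3 regions put the first in the H3K4me3 region from 95806535 to 95807772 and the third in the region from 95672792 to 95681681, with the second start in no H3K4me3 region. The region fitting the first start had weak H3K4me3 at both stages, with peaks of 1058 and 1183 bp and scores of 181.05 and 118.96, and no H3K27ac at either. It lay inside H3K27me3. A single fetal H3K27me3 peak ran from 95803985 to 95810102 over 6118 bp with a score of 2377.18, above 93.3% of its list. The adult list had 6 H3K27me3 peaks of 214 to 696 bp in the same place, which covered 2161 bp, all of it within the fetal peak.

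The Erg region fitting the third start was among the most broadly acetylated sites of both lists. Its adult H3K27ac peak, 15643 bp from 95666064 to 95681706, was the widest of the adult list, and the fetal peak of 17571 bp from 95665888 to 95683458 ranked 4th in the fetal list. H3K4me3 peaks of 6958 and 8890 bp lay within them. Next to it, fetal H3K27ac ran for a further 11939 bp from 95653336 to 95665274. In that stretch the adult list had 3 shorter peaks of 1038, 1991 and 6483 bp. A narrow H3K4me3 peak was called inside this block at both stages, 1143 bp and 822 bp wide with scores of 106.36 and 111.59. The sequence upstream of the third start, with its GATA, E-box and ETS matches, is the CpG-poor one of the pair shown above.

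The elements classed as distal at Erg had lower H3K27ac scores than the peaks of this block. That contrast depends on the classes used. The stretch from 95653336 to 95665274 counted as promoter-type because it held the narrow H3K4me3 peak, although fetal H3K4me1 covered 11074 bp of it. Its adult H3K27ac peaks of 1038 and 1991 bp did not touch H3K4me3 and were counted as distal peaks. The widest distal element with H3K27ac in the fetal list only ran from 95622675 to 95625891, and the 3 such elements had fetal H3K27ac scores of 115.59 to 151.5. The element shared by the stages, from 95641901 to 95645094, had 2334 bp of fetal and 1783 bp of adult H3K27ac. One element, from 95581964 to 95583220, was acetylated in the adult list only, with a score of 50.35, which was above that of only 0.253% of the adult list.

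Fli1, the closest relative of Erg, had a ratio of fetal to adult acetylated length of 1.79, the highest of the 7 windows, which together were at 1.28. The whole H3K27ac lists also covered more in the fetal list, at 50.4 Mb against 33.4 Mb. H3K27ac covered 25642 bp of its window in the fetal and 14312 bp in the adult list, and 43.3% of the length acetylated at either stage was acetylated at both, the lowest share among the 7 windows. The difference lay outside the promoter. At the promoter-type region on chromosome 9 from 32345986 to 32351984, H3K4me3 peaks were 5915 and 5601 bp and H3K27ac peaks 6155 and 5886 bp. At the widest distal element, from 32306337 to 32319681, one fetal H3K27ac peak of 12366 bp faced 2 adult peaks of 3388 and 1076 bp. Elements from 32319985 to 32323020 and from 32336646 to 32340660 were acetylated in the fetal list only, over 1479 and 2842 bp. The latter was the widest fetal-only distal element of the 7 windows. Adult H3K27ac exceeded fetal at the element from 32323366 to 32330613, with 3962 against 2800 bp.

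The widest distal Fli1 element, from 32306337 to 32319681, carried H3K4me1 at both stages. The fetal list had a peak of 10068 bp there, from 32309614 to 32319681, with the score 3100, the best-scored distal H3K4me1 peak of the windows and the 8th widest of 92784. The best-scored distal adult H3K4me1 peak of the windows lay within it, from 32314997 to 32315514, with a score of 182.31 that was above 98.2% of the adult list. Fli1 also had the most adult H3K4me1 peaks of any member, 27, and the only 2 that did not overlap a fetal one. Adult H3K4me1 covered 4.86% of its window of 140 kb, less than the 7.01% of the 20 kb Lyl1 window.

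**Figure D4:**
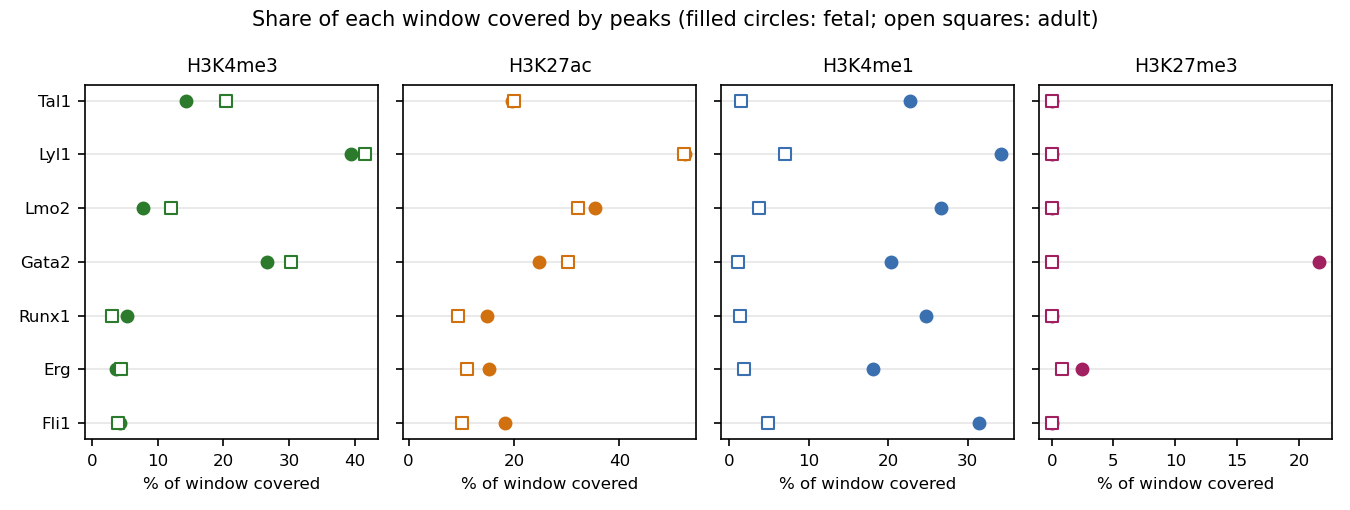
Percent of each window covered by peaks of the 4 marks, 1 row per gene; filled circles are the fetal and open squares the adult lists, with 1 value each and no replicate error. H3K4me1 coverage lies between 18.1% and 34.2% for fetal circles and between 1.05% and 7.01% for adult squares, and H3K27me3 is above 0 only at Gata2 and Erg.

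Across the 7 windows, H3K4me3 covered 7.44% of the length in the fetal and 8.06% in the adult lists. It covered more in the adult list at Tal1, Lyl1, Lmo2, Gata2 and Erg and less at Runx1 and Fli1. H3K27ac covered 19.0% and 14.9%, more in the fetal list at Lmo2, Runx1, Erg and Fli1, more in the adult list at Gata2, and nearly the same at Tal1 (13719 and 14017 bp) and Lyl1 (10480 and 10431 bp). H3K4me1 covered 23.9% and 2.42%, more in the fetal list at every member, by 4.87-fold at Lyl1 to 19.2-fold at Gata2. The whole H3K4me1 lists differed in the same direction, with 57.3 Mb in the fetal and 2.81 Mb in the adult list. H3K27me3 covered 1.78% and 0.26%.

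The share of window peaks that were also called at the opposite stage was set against that of the whole list. For H3K4me3 it was 17 of 19 fetal peaks, or 89.5% (66.9 to 98.7), against 91.0% of the list, and 14 of 19 adult peaks, or 73.7% (48.8 to 90.9), against 92.8%. For H3K27ac it was 28 of 39 fetal peaks, or 71.8% (55.1 to 85.0), against 65.3%, and 31 of 38 adult peaks, or 81.6% (65.7 to 92.3), against 88.6%. For H3K4me1 it was 43 of 196 fetal peaks, or 21.9% (16.4 to 28.4), against 9.22%, and 82 of 84 adult peaks, or 97.6% (91.7 to 99.7), against 87.4%. For H3K27me3 it was 1 of 4 fetal peaks, against 35.5%, and all 6 adult peaks, against 92.4%. The whole-list share lay outside the interval for adult H3K4me3 and for both H3K4me1 lists, although neighbouring peaks are not independent and the intervals are too narrow for that reason. These shares depended on the peak calls. Adult H3K4me3 reached 100% with peaks at or above the median score and 82.4% with peaks within 1 kb merged, adult H3K4me1 was 83.3% with equal numbers of peaks, and fetal H3K4me1 was 1.02% under a requirement of 50% cover, while the whole-list shares were not recomputed under these settings.

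**Figure D5:**
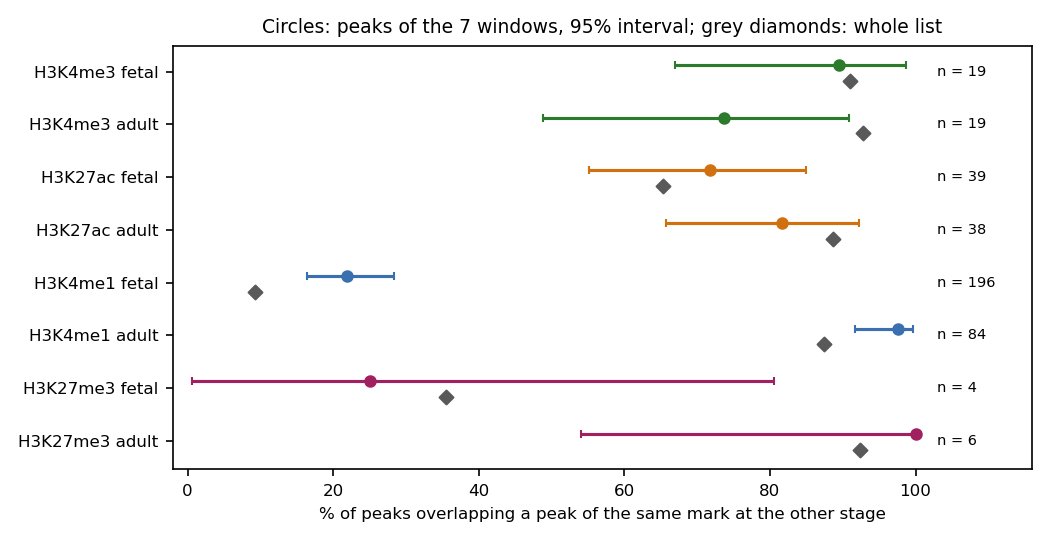
Percent of peaks whose mark was also called there at the opposite stage, with the number of window peaks at the right; circles with bars are the 7 windows with 95% exact intervals and grey diamonds the whole lists. The fetal H3K4me1 share of 21.9% stands above the 9.22% of the whole list, and the adult H3K4me3 share of 73.7% below 92.8%.

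Distal peaks made up 24 of 39 fetal and 22 of 38 adult H3K27ac peaks, or 61.5% and 57.9%, against 45.2% and 27.7% of the whole lists. They made up 141 of 196 fetal and 75 of 84 adult H3K4me1 peaks, or 71.9% and 89.3%, against 70.3% and 81.6%. For H3K27me3, 0 of 4 fetal and 3 of 6 adult peaks were distal, against 72.2% and 77.3%, and those 3 were pieces of the Erg block.

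Merging the H3K4me1 and H3K27ac peaks of both stages and leaving out those that touch H3K4me3 gave 111 distal elements, 43 of them at Runx1, 25 at Fli1, 20 at Erg, 12 at Tal1, 7 at Lmo2, 3 at Gata2 and 1 at Lyl1. None overlapped an H3K27me3 peak, with an upper interval bound of 3.27%, against 5.73% of all distal elements. H3K27ac was called at 24 of them. It was shared by the stages at 11, or 45.8% (25.6 to 67.2), fetal-only at 9, or 37.5% (18.8 to 59.4), and adult-only at 4, or 16.7% (4.74 to 37.4). Over all 11149 acetylated distal elements these shares were 30.2%, 61.4% and 8.35%. The fetal-only share of the series lies above the interval of the heptad elements, but neighbouring elements are not independent, so that interval is too narrow. The split changed with the way elements were counted: with elements within 1 kb merged, 5 were shared, 3 fetal-only and 3 adult-only, and with peaks at or above the median score, 6 were shared, 6 fetal-only and 0 adult-only. With elements that had an H3K4me3 peak within 1 kb left out, 11 were shared, 9 fetal-only and 3 adult-only. The series was not recounted under these settings.

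Fetal H3K4me1 was present at all 24 acetylated distal elements (lower interval bound 85.8%), against 87.8% of acetylated distal elements in the series. This included the 4 acetylated in the adult list only, a class in which 71.5% of all elements had fetal H3K4me1. Those 4, at Lmo2, Runx1 and Erg, thus carried H3K4me1 without H3K27ac in the fetal list and H3K27ac in the adult list. Among them, the Lmo2 element from 103815461 lay beside an adult-only H3K4me3 region. Adult H3K4me1 was found at 7 of the 15 elements with adult H3K27ac, or 46.7% (21.3 to 73.4), against 46.4%. The commonest distal class, with fetal H3K4me1 and no other H3K4me1 or H3K27ac peak, held 80 of the 111 elements, or 72.1% (62.8 to 80.2), against 75.1%.

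In these windows fetal H3K4me1 covered a smaller share of the widest H3K4me3 regions than of most others. The same comparison was not made over all H3K4me3 regions. Fetal H3K4me1 covered 25.8% to 37.6% of the length in the widest region of each window, and 48.5% in the second Runx1 region. It covered at least 59.0% of the 13 regions below 5 kb, except the Tal1 region of 2814 bp at 31.8% and the adult-only Tal1 region of 1865 bp at 0. Adult H3K4me1 covered at most 3.53% of any widest region.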

How the data were processed

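ChIP-seq peak lists of 4 histone marks at 2 stages were used, 8 lists in all, from 16 of 20 samples; the 4 inputs have no list here. Reads were aligned with Bowtie2 2.2.2 to mm9, per the submitters' processing notes. MACS is part of every peak name in the deposited lists; the caller's version, settings, control and the pooling step are not given in the sources used here. The score of each peak is the authors' deposited value, at least 50, with many at 3100, and was used only within a list. Read depth is unknown.

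The windows, members and summaries were chosen with earlier results of these data known. Overlap needed 1 bp; intervals use a confidence level of 95%. Coordinates are 1-based. The peaks named were the widest H3K4me3 region and the widest distal H3K27ac element of each window and, over the 7 windows together, every adult-only distal H3K27ac element, the widest fetal-only one, all H3K27me3 clusters (peaks within 1 kb) and the best-scored distal H3K4me1 peak of each list; other single peaks, and the limits of 5 kb and 50% for H3K4me3 regions, were chosen after values were seen. Motifs were searched in RefSeq GRCm38.p6 sequences, and spacings, not coordinates, were compared with mm9; equal spacing on both assemblies was assumed. Positions of other network genes on mm9 were not used here. Overlap code was tested on simulated data, with 200 of 200 planted overlaps recovered per list. Python 3.11.15, numpy 2.4.6, pandas 2.3.3, scipy 1.17.1 and matplotlib 3.10.9 were used.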

Additional observations from a re-analysis of the deposited data

How the results depend on the processing

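No paired analysis was possible because the 2 replicates of a mark and stage are combined in 1 list, which also means that leaving out a replicate could not be tried. A count or length was taken as moved beyond 1.5 times its value and a share outside its 95% interval; 119 of 155 alternative values stayed within these limits, including all 27 with windows widened by 10 kb, and the cause of the others was not tested unless it follows from the setting.

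Keeping peaks at or above the median score left fewer peaks by construction: 9 fetal and 8 adult H3K4me3 peaks, 22 and 15 H3K27ac peaks, 111 and 48 H3K4me1 peaks, and 3 adult H3K27me3 peaks, which covered 0.168% of the windows. All remaining adult H3K4me3 and H3K27ac peaks (100%) then had a fetal peak. H3K4me3 regions numbered 8 shared, 1 fetal-only and 0 adult-only, with fetal H3K27me3 at 1 and adult H3K27me3 at 0. Distal H3K27ac elements numbered 6 shared and 0 adult-only, so the adult-only elements rest on lower-scored peaks. Adult H3K4me3 at Runx1 then covered 4562 bp and adult H3K27ac at Fli1 5886 bp, each the peak of 1 promoter.

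With equal numbers of top-ranked peaks 56 fetal H3K4me1 peaks were left, overlap with the other stage was 55.4% for fetal and 83.3% for adult H3K4me1, and 5 distal elements had H3K27ac in the fetal list only. Merging peaks within 1 kb gave 73 fetal and 41 adult H3K4me1 peaks, 2 fetal and 1 adult H3K27me3 peaks, and 30.1% overlap for fetal H3K4me1. With 50% of the peak covered, overlap was 1.02% for fetal H3K4me1 and 0% for fetal H3K27me3, where adult peaks are narrow. With elements within 1 kb merged, distal H3K27ac was in both lists at 5 and in the fetal list only at 3. With H3K4me3 peaks within 1 kb merged, 1 region was fetal-only and 2 were adult-only.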
